A study of Mus musculus with 16 samples.

Results

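Forebrain progenitors are the dividing neuroepithelial cells of the most anterior neural tube. They were taken as every analysed singlet whose label, transferred by the authors from a gastrulation atlas, names forebrain progenitors. This gave 710 of 37841 cells, of which 491 were labelled Ventral, 218 Late dorsal and 1 Early dorsal. The 3 labels were kept apart, and the single Early dorsal cell (E9.5, WT C) was counted but not analysed further. Ventral cells comprised 110 at embryonic day (E) 8.5 and 381 at E9.5, and Late dorsal cells 36 and 182. None was found at E7.5, in 2532 null and 2506 wild-type (WT) cells, so that shares up to 0.118% and 0.120% remain possible. These limits cover counting error only.

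The cells came from chimeric mouse embryos made to ask how cells without STAT3 behave beside normal cells in the same embryo. *Stat3* null embryonic stem cells (ESCs) of CD1 background, in which exons 20 to 22 of *Stat3* were replaced by a neomycin cassette, carried a tdTomato reporter and were injected into CD1 host blastocysts. Null libraries hold cells sorted as tdTomato-positive, and WT libraries hold tdTomato-negative cells of the host. Single-cell libraries of 3′ RNA, counted by unique molecular identifiers (UMIs), comprised 2 null and 2 WT libraries at each of E7.5 and E8.5 and 4 and 4 at E9.5. Every null cell thus descended from drug-selected, picked ESC colonies and every WT cell from a host embryo, and the deletion, the donor line, its reporter and its time in culture cannot be told apart. Embryos were pooled before sorting at E7.5 and E8.5, and the study describes 2 embryos at E9.5, so the 4 libraries of a genotype may not all be from separate embryos and p-values measure the spread between libraries only. The letters A to D name the libraries of each group and carry no other meaning.

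During head fold and early somite stages the anterior neural plate expresses *Six3*, which keeps out posteriorising Wnt signals, and *Lhx2*, a LIM homeobox gene needed for eye and cortex. Sonic hedgehog from the prechordal plate induces the hypothalamic genes *Nkx2-1* and *Nkx2-4* ventrally, while Wnt and bone morphogenetic proteins from the dorsal midline support *Emx2*, *Wnt8b* and the cortical hem. STAT3 is a transcription factor activated by cytokine receptors through Janus kinases, and in the later brain it is known for astrocyte formation.

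The labels were examined against marker genes, with levels given as UMIs of a gene per 1000000 UMIs of the label (CPM). These levels describe the cells that were labelled by their expression and were not tested. Over 84 cell types, *Six3* (437 CPM) and *Lhx2* (319) were highest in Ventral cells. Of 8 eye field genes, *Rax* (143), *Six6* (222) and *Vax1* (8.52) were highest there, and of 13 ventral forebrain and hypothalamus genes *Nkx2-1* (163), *Nkx2-4* (145) and *Dbx1* (52.1), as was *Fgf10* (53.6). Other members of these lists were not, among them *Aldh1a3* (23.5), *Foxd1* (97.5), *Dlx1* (0.563) and *Isl1* (5.99), which stood 10th, 13th, 53rd and 55th. *Shh*, the hedgehog ligand, stood 5th at 149 CPM, with the notochord highest (760). The Optic vesicle was close to Ventral cells in *Lhx2* (287) and *Vax1* (8.17) and lower in *Six3* (220), *Six6* (111) and *Rax* (72.5). Late dorsal cells had 85.9 CPM of *Six3* and 94.3 of *Lhx2*, the 4th and 5th highest of the 84 types. Of 12 dorsal telencephalon genes, *Wnt8b* (314), *Zic1* (313), *Emx2* (175), *Dmrta2* (119), *Gli3* (119) and *Dmrt3* (38.6) were highest in Late dorsal cells. Others of that list were not, among them *Msx1* (98.9), *Wnt3a* (13.9) and *Lmx1a* (22.6), which stood 16th, 8th and 3rd. Of 10 forebrain identity genes, those highest in Late dorsal cells included *Otx2* (229) and *Lhx5* (124). Other members were far from the top, with *Sp8* (3.10) 45th in Ventral cells and *Hesx1* (0.132) 63rd in Late dorsal cells. In Late dorsal cells the ventral genes were low. *Nkx2-1* (0.132), *Nkx2-4* (0) and *Shh* (0.263) were at or near 0. The genes that separated Late dorsal cells most from all other cells also included the Wnt co-agonists *Rspo2* (111) and *Rspo3* (510).

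A *Six3* UMI was found in 87.0% of Ventral and 68.3% of Late dorsal cells, against 1.82% of Erythroid cells, which should lack it, at median depths of 26381, 32838.5 and 34310.5 UMIs per cell. With every cell thinned to 10000 UMIs, which left out 0 cells, the shares were 78.0%, 43.1% and 0.775%. For *Lhx2* they were 86.4%, 57.3% and 2.10% before and 77.4%, 40.4% and 0.729% after thinning. Both markers thus stood far above their level in Erythroid cells. The source of the UMIs in Erythroid cells was not tested. Of the 381 Ventral cells at E9.5, 313 held both markers and 30 held neither.

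Over the 8 E9.5 libraries, *Six6* ran from 44.9 to 329 CPM in Ventral cells and the optic stalk gene *Pax2* from 8.60 to 81.6. WT D was the lowest of the 8 in *Six3*, *Lhx2* and *Six6*, with *Six3* in 62.1% of its 66 cells.

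**Figure D1:**
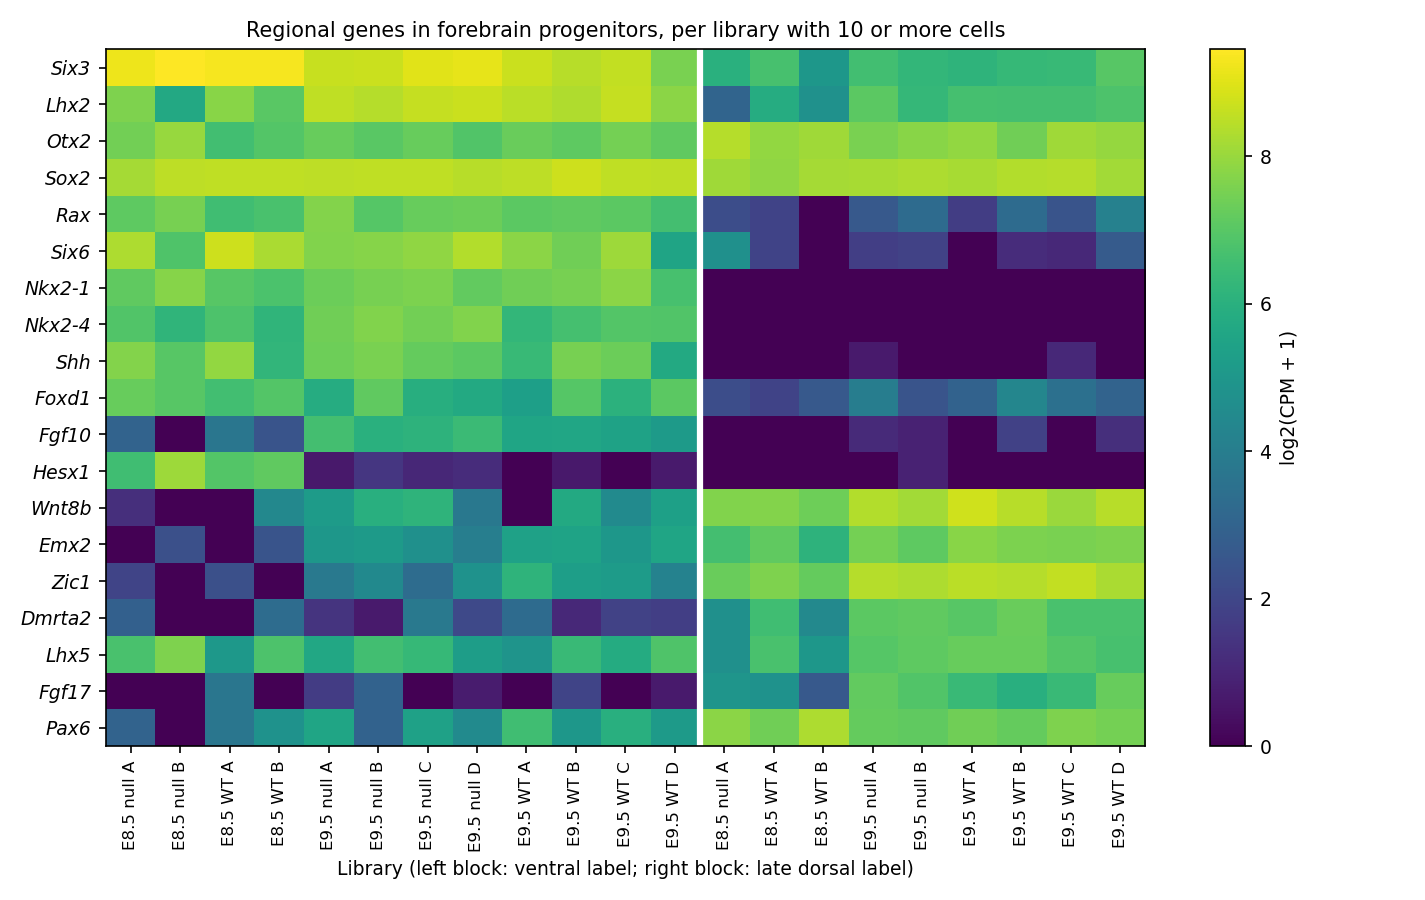
Heat map of log2(CPM + 1) for regional marker genes (rows) in libraries with at least 10 cells (columns), with Ventral forebrain progenitors on the left and Late dorsal on the right. Hypothalamic and eye field genes such as *Nkx2-1* and *Rax* are high in Ventral columns, and *Emx2*, *Wnt8b* and *Dmrta2* are high in Late dorsal columns, in null and WT libraries of either stage.

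Forebrain progenitors numbered 14 to 116 per library at E8.5 and E9.5. Ventral cells gave 453421 to 1837087 UMIs per E9.5 library and Late dorsal cells 289896 to 1703454. A median Ventral cell at E9.5 held 34839.6 ± 7164 UMIs in null and 26599 ± 4054 in WT libraries (SD, n = 4 each). The whole data set had 614 barcodes in more than 1 library, and 25 forebrain progenitors carried one. A tdTomato UMI was found in 89.6% to 100% of Ventral null cells per E9.5 library. 1 library stood apart from its label, E8.5 null B, of whose other cells 72.3% held a tdTomato UMI against 89.9% in E8.5 null A and 96.3% to 98.3% at E9.5. In those cells it had 262 CPM of *Grb10*, where WT libraries of its stage had 268 and 266 and every other null library between 4.88 and 22.1, while its *Stat3* (1.55 CPM) lay in the null range of 1.16 to 2.56, below WT (6.20 to 9.31). Shares, the counts of genes called and *Hesx1* at E8.5 are given with and without this library. The 3′ tags of *Stat3* lie outside the deleted exons, so its RNA level checks the labels only in part.

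The share of forebrain progenitors among null and WT cells at E9.5 did not differ beyond the spread between libraries. Of all analysed cells in null A to D, Ventral cells made up 1.50%, 1.99%, 2.57% and 2.72%, and in WT A to D 0.519%, 2.50%, 1.94% and 1.67%. The groups overlapped, with WT A the lowest of the 8. Their means were 2.20% ± 0.559 and 1.66% ± 0.834 (SD, n = 4 each, exact two-sided permutation test, p = 0.343). Late dorsal cells made up 1.18%, 1.12%, 0.377% and 0.517% in null and 0.779%, 0.871%, 0.998% and 0.607% in WT libraries. Null libraries held both the highest and the lowest values, and the means were 0.798% ± 0.410 and 0.814% ± 0.164 (exact two-sided permutation test, p = 0.971). Of the forebrain progenitors alone, Ventral cells were 72.8% ± 15.2 in null and 63.1% ± 15.96 in WT libraries (exact permutation test, p = 0.400), from 40.0% in WT A to 87.2% in null C. The difference of 9.72 points ran from 2.02 without WT A to 15.3 without null A. In an edgeR fit of cell numbers over 71 cell types at E9.5, the log2 ratio of null to WT was 0.40 for Ventral (SE 0.39, adjusted p = 0.965) and 0.01 for Late dorsal cells (SE 0.46, adjusted p = 0.997). For Ventral cells it was 0.11 without WT A, 0.23 without null D, 0.26 without null C and 0.72 without WT B, and the difference in share, 0.538 points, was 0.159 without WT A. In 50 simulated sets of E9.5 cell numbers, a true log2 change of -1 was called in 14% for Ventral and 4% for Late dorsal cells. A change of -2 was called in 64% and 38%. Losses of this size could thus be missed by the edgeR fit.

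At E8.5 both null libraries had larger Ventral shares (1.59% and 0.960%) than both WT libraries (0.393% and 0.732%). The means of 1.28% ± 0.447 and 0.563% ± 0.240 (SD, n = 2 each) gave p = 0.333, the smallest that an exact permutation test of 2 against 2 libraries allows, and the edgeR log2 ratio was 1.19 (SE 0.53, adjusted p = 0.844 over 68 types). Without E8.5 null B it was 1.50, and leaving out the other libraries in turn gave 0.76 (null A) to 1.79 (WT B). Late dorsal cells were 0.261% and 0.262% of null and 0.432% and 0.314% of WT libraries, from 3 to 12 cells each (log2 ratio -0.49, SE 0.49, edgeR adjusted p = 0.984, and -0.46 without null B). Leaving out a WT library gave -0.26 (A) or -0.65 (B).

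**Figure D2:**
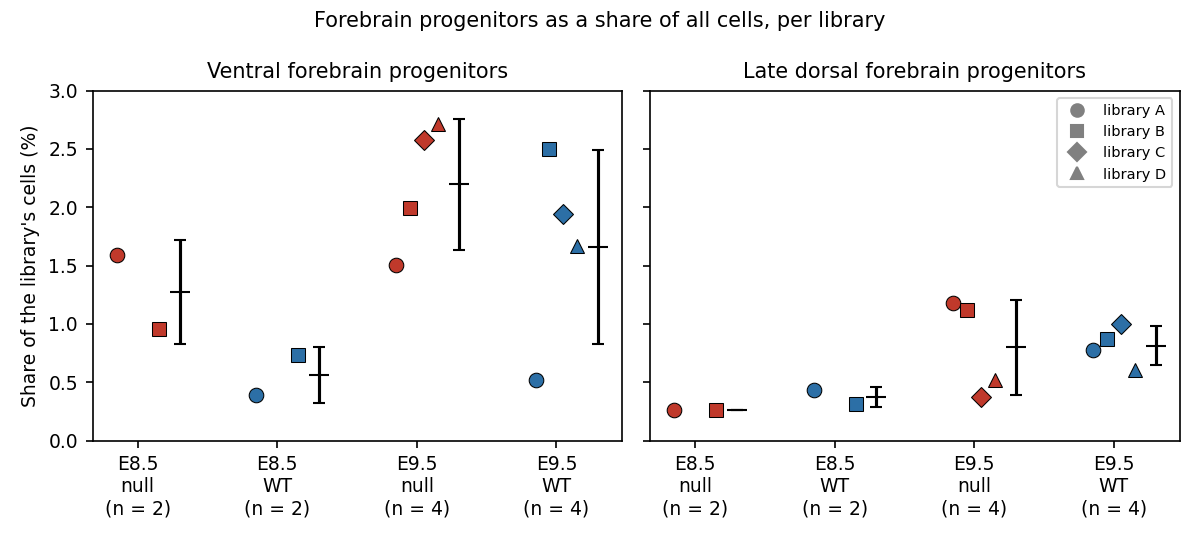
Share of analysed cells (percent, vertical axis) that were Ventral or Late dorsal forebrain progenitors in each E8.5 and E9.5 library, null in red and WT in blue, with the mean and SD of each group. At E9.5 the Ventral groups overlap (0.519% to 2.72%), and at E8.5 both null libraries lie above both WT libraries.

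The atlas stage to which each cell mapped was read as a coarse measure of progress along development. In Late dorsal cells it hardly separated the sampled stages. Of the WT cells with that label, 82.6% mapped to E9.25 at E8.5 and 92.2% at E9.5. Ventral cells at E8.5 mapped on average to day 8.93 in null A and 8.96 in WT B. A delay could therefore be missed by this measure. Ventral cells at E9.5 mapped on average to day 9.07, 9.18, 9.10 and 9.11 in null and 9.08, 9.04, 9.11 and 9.0 in WT libraries. The groups overlapped (9.11 ± 0.0483 against 9.06 ± 0.0492, SD, n = 4 each, exact two-sided permutation test, p = 0.200). The difference of 0.0554 days ran from 0.0326 without null B to 0.0741 without WT C. Late dorsal means were 9.20 ± 0.00116 in null (A and B, n = 2) and 9.19 ± 0.0442 in WT libraries (n = 4), with p = 1 in the exact permutation test. Of the atlas stages, E9.25 took 75.5% of null and 65.9% of WT Ventral cells at E9.5. Of the cell cycle genes, 0 of 14 tested S phase and 0 of 14 G2/M genes passed in either label at E9.5 (medians from -0.06 to 0.18 on the log2 scale), beside 0.166% of all genes with an adjusted p under 0.05 in Ventral and 0.152% in Late dorsal cells.

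Gene expression was compared between null and WT Ventral cells at E9.5 on UMIs summed per library. Of 9043 genes tested, 7 were called (0.0774%) by the quasi-likelihood test of edgeR, at a Benjamini-Hochberg p under 0.05 and a change over 1 on the log2 scale. In null cells 4 were higher (0.0442%) and 3 lower (0.0332%), and the unadjusted p was under 0.05 for 534. Without null A 4 genes were called, 3 of them among the 7, and without WT A 13. Of the 7, the genes called higher were *Cwc22*, *Irak1bp1*, *Dph7* and *Zfp937*, and those lower were *Grb10*, *Pusl1* and *Phlda1*. None of them is a known regional gene of the forebrain. In each of the 7, every null library lay beyond every WT library, as did 3.73% of all genes tested.

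*Cwc22* encodes a splicing factor that loads the exon junction complex (chromosome 2, 77881159 to 77946375, minus strand, build GRCm38, as for all positions here). It had 176, 136, 155 and 180.5 CPM in null A to D and 28.7, 34.4, 44.2 and 33.1 in WT A to D. All null libraries lay well above the highest WT library, with means of 162 ± 20.4 and 35.1 ± 6.54 (edgeR log2 fold change 2.17 ± 0.14 SE, adjusted p = 9.21e-11). *Irak1bp1*, for a partner of the kinase IRAK1 (chromosome 9, 82829540 to 82847687, plus strand), had 57.4, 57.1, 81.7 and 75.4 CPM in null and 37.5, 29.2, 17.7 and 28.9 in WT libraries (edgeR log2 fold change 1.30 ± 0.18 SE, adjusted p = 0.000437). The groups did not overlap, with WT A the nearest to the null libraries. *Dph7*, an enzyme of diphthamide synthesis (chromosome 2, 24962400 to 24972163, plus strand), was expressed at a low level, with 13.8, 11.7, 14.7 and 9.67 CPM in null and 6.62, 2.86, 1.77 and 2.95 in WT libraries (edgeR log2 fold change 2.02 ± 0.37 SE, adjusted p = 0.00716, 0.0505 to 0.0652 without null A, null C, WT B or WT C). *Zfp937*, a zinc finger gene (chromosome 2, 150218073 to 150240725, plus strand), had 18.2, 13.5, 17.96 and 21.9 and 6.62, 4.01, 12.4 and 4.13 CPM (edgeR log2 fold change 1.49 ± 0.32 SE, adjusted p = 0.0457). Its call was near the threshold and was lost with DESeq2 (adjusted p = 0.123) and without null A, C or D or WT B or D (0.101 to 0.263). For *Dph7* WT B to D, and for *Zfp937* WT B and D, lay too low for the filter on low counts. Both genes could pass it only with the null libraries, so their p-values are no independent support for the differences.

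Among the genes lower in null, *Grb10* showed the widest gap. It encodes an adaptor protein that restrains insulin and growth factor receptors and is imprinted (chromosome 11, 11930508 to 12038683, minus strand). WT A to D had 377, 397, 418 and 371 CPM and null A to D only 12.1, 27.6, 10.3 and 1.93 (edgeR log2 fold change -4.90 ± 0.39 SE, adjusted p = 0.00563). Null libraries spread more widely, relative to their level, than WT libraries did, and the adjusted p rose to 0.0564 without null A and 0.0511 without null C. A *Grb10* UMI was found in all 185 WT Ventral cells at E9.5. Among null-sorted cells it was found in 11 of 186 with a tdTomato UMI and in 5 of 10 without one. The 10 cells without tdTomato RNA held 42 of the 89 *Grb10* UMIs of the null libraries and the 186 with it 47. In null A, 19 of the *Grb10* UMIs lay in cells with a tdTomato UMI and 3 in cells without one, and in null D all 3 lay in cells with one. Restricted to null cells with a tdTomato UMI, the log2 fold change was -5.77 (edgeR adjusted p = 0.000477). *Pusl1*, a pseudouridine synthase-like gene (chromosome 4, 155887879 to 155891781, minus strand), had 2.76, 3.68, 5.44 and 7.09 CPM in null and 17.6, 16.6, 33.6 and 33.7 in WT libraries (edgeR log2 fold change -2.47 ± 0.32 SE, adjusted p = 0.000165). Null A to C lay too low for the filter on low counts, so *Pusl1* could pass it only with the WT libraries. Its adjusted p-value is therefore no independent support for the difference. *Phlda1*, a growth factor-induced gene with a pleckstrin homology-like domain (chromosome 10, 111506286 to 111508645, plus strand), had 11.03, 9.82, 17.4 and 16.1 and 44.1, 28.6, 28.3 and 29.5 CPM, with WT A far above the other WT libraries (edgeR log2 fold change -1.18 ± 0.22 SE, adjusted p = 0.00972, 0.0699 without null A and 0.0508 without null B).

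**Figure D3:**
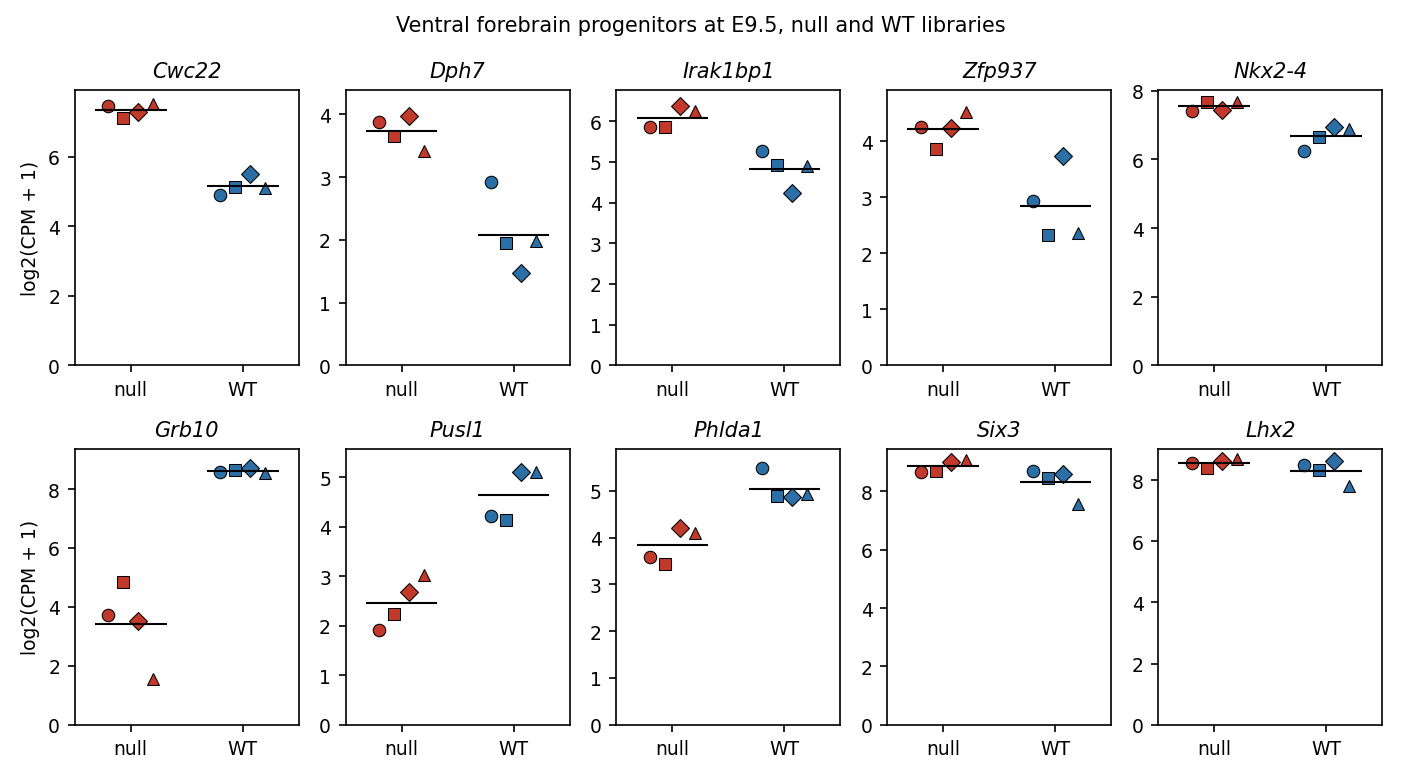
Level, as log2(CPM + 1), of 10 genes in Ventral forebrain progenitors of each E9.5 library (circle, square, diamond and triangle for A to D, null in red, WT in blue), with horizontal lines at the group means. The 7 called genes and *Nkx2-4* show no overlap of the groups, while *Six3* and *Lhx2* overlap, with WT D the lowest.

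With no threshold on size, 15 genes passed (0.166%), 10 higher (0.111%) and 5 lower (0.0553%), so that 8 lay under the fold change. *Nkx2-4*, a homeobox gene of the hypothalamus and the 1 list member among them (chromosome 2, 147083316 to 147085445, minus strand), had 168, 201, 174 and 202 CPM in null and 75.0, 100.2, 121 and 118 in WT libraries. Every null library lay above every WT library, with means of 186 ± 17.8 and 104 ± 21.2 (edgeR log2 fold change 0.79 ± 0.12 SE, adjusted p = 0.00121). A UMI of it was found in 61.2% of E9.5 Ventral cells. The other 7 were chosen after their values were seen. *Fgf10*, a growth factor of the hypothalamic midline, had 97.1, 62.6, 68.0 and 85.7 and 46.3, 47.0, 42.4 and 34.8 CPM without overlap (edgeR log2 fold change 0.89 ± 0.15 SE, adjusted p = 0.00418). *Zdbf2*, an imprinted zinc finger gene, had 285, 225, 229 and 219.8 and 104, 149, 115 and 107 CPM (edgeR log2 fold change 0.98 ± 0.12 SE, adjusted p = 3.86e-05). *Psmd8*, a proteasome subunit, *Igfbp2*, a binding protein of insulin-like growth factors, and *Tpm3*, a tropomyosin, were higher by 0.59, 0.62 and 0.54 on the log2 scale (edgeR adjusted p = 0.000737, 0.00349 and 0.00629, the last 0.0511 without null C). *Csnk2a1*, a kinase subunit, was lower (-0.76, edgeR adjusted p = 0.00629 and 0.0652 without WT B), as was *Tpm3-rs7* (-0.83, 0.000437), a near-identical copy of *Tpm3* whose reads could be split between both, which leaves the values of that pair uncertain.

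The markers of the cells did not pass the test. *Six3* had 402, 414, 519 and 543 CPM in null and 415, 350.4, 382 and 188 in WT libraries (edgeR log2 fold change 0.52 ± 0.24 SE, adjusted p = 0.871), and *Lhx2* 377, 335, 391 and 409.9 and 359, 323, 390.4 and 223 (edgeR log2 fold change 0.24 ± 0.12 SE, adjusted p = 0.884). The groups overlapped in both, and WT D was lowest in both. With no filter on low counts the adjusted p of *Six3* was 0.00918. *Hesx1*, a repressor of the early anterior neural plate, gave only 8 null and 2 WT UMIs at this stage, too few to test. Read against 0.166% of all genes that passed the adjusted p, 0 of 8 tested forebrain identity genes, 0 of 10 neural progenitor, 0 of 7 dorsal telencephalon, 0 of 6 eye field, 0 of 3 diencephalon and 0 of 8 neuronal differentiation genes passed. The ventral forebrain and hypothalamus list had 1 of 7 (*Nkx2-4*), with a median of 0.03 on the log2 scale, beside -0.00 over all genes. Its other members included *Shh*, with 163, 188, 146 and 132 CPM in null and 81.6, 183, 159.9 and 52.0 in WT libraries, and *Nkx2-1*, with 160.0, 183, 193 and 146 and 168, 180.4, 224 and 102. These ranges overlapped. Medians of the 6 lists without a member that passed ran from -0.61 (dorsal telencephalon) to 0.14 (neuronal differentiation), and dorsal genes such as *Emx2* (31.4, 34.4, 26.1 and 15.5 against 41.9, 43.5, 30.9 and 46.6 CPM) had overlapping ranges.

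Signalling pathways were described by the same lists. In Ventral cells, 0 of 6 tested Hedgehog, 0 of 10 FGF, 0 of 11 Wnt, 0 of 7 BMP, 0 of 8 Notch and 0 of 5 retinoic acid genes passed (medians -0.32 to 0.12). Of the genes that STAT3 is known to act with, 0 of 5 STAT, receptor and Janus kinase genes and 0 of 8 STAT3 target and feedback genes passed, with medians of -0.24 and -0.01. *Stat3* itself was sparse in these cells, with 3.08 ± 1.11 CPM in null and 4.68 ± 1.10 in WT libraries (21 and 23 UMIs), and was below the filter on low counts. *Socs3*, the feedback inhibitor induced by STAT3, had 12.7, 13.5, 11.98 and 12.9 CPM in null and 6.62, 8.59, 15.02 and 9.45 in WT libraries, with overlapping ranges. *Pim1*, a kinase gene and STAT3 target, had 114, 131, 110.0 and 160.5 and 146, 132, 107 and 154, and the cyclin *Ccnd1* 584, 637, 588 and 748 and 565, 589, 526 and 554. Neither passed the test. None of the 9 pluripotency genes was expressed enough to be tested.

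Late dorsal cells at E9.5 were compared between null A and B, with 51 and 27 cells, and WT A to D, with 19 to 24 cells each. Null C and D, with 6 and 8 cells, were below the minimum of 15, and were not in the test. Their values are given for the genes called. Of 7896 genes, 8 were called (0.101%), and 302 reached 0.05 before adjustment. The 4 higher in null (0.0507%) were *Msx3*, *Cwc22*, *Igfbp5* and *Zdbf2*, and the 4 lower (0.0507%) *Grb10*, *H19*, *Akr1e1* and *Pttg1*. Groups did not overlap in 10.3% of all genes tested. In a fit of all 8 libraries, chosen after seeing the data, 6 genes were called, 4 of them shared with these 8. *Cwc22* had 148 and 125 CPM in null and 33.5, 38.2, 32.9 and 43.3 in WT libraries (edgeR log2 fold change 1.90 ± 0.17 SE, adjusted p = 2.28e-08), and 166 and 125 in null C and D. *Grb10* had 22.9 and 34.9 and 259.6, 274, 261 and 230.2 (edgeR log2 fold change -3.19 ± 0.18 SE, adjusted p = 2.19e-13) and 0 in null C and D. Both genes thus stood apart in Late dorsal as in Ventral cells, which came from the same libraries. A *Grb10* UMI was found in all 90 WT cells, in 9 of 87 null cells with a tdTomato UMI and in 3 of 5 without one. *H19*, an imprinted non-coding RNA (chromosome 7, 142575529 to 142578143, minus strand), had 11.7 and 21.5 CPM in null and 149, 140.0, 103 and 181 in WT libraries (edgeR log2 fold change -3.16 ± 0.26 SE, adjusted p = 5.82e-08), and 6.90 and 2.77 in null C and D. *Akr1e1*, an aldo-keto reductase (chromosome 13, 4590750 to 4609174, minus strand), had 7.04 and 3.58 against 21.9, 24.2, 22.7 and 16.7 (edgeR log2 fold change -1.91 ± 0.38 SE, adjusted p = 0.0202, 0.204 with DESeq2 and 0.0545 to 0.286 without WT A, WT C, null A or null B), and 13.8 and 5.54 in null C and D. For *Grb10*, *H19* and *Akr1e1*, null C and D also lay below every WT library. For *Akr1e1* null A and B lay too low for the filter on low counts, so it was tested through the WT libraries. The p-values of *Akr1e1* are therefore no independent support for the difference.

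For the other called genes null C and D did not both lie with null A and B. *Igfbp5*, a binding protein of insulin-like growth factors (chromosome 1, 72857932 to 72874884, minus strand), had 151 and 147 CPM in null and 72.7, 58.6, 67.0 and 33.5 in WT libraries (edgeR log2 fold change 1.35 ± 0.18 SE, adjusted p = 3.51e-05), but 82.8 and 55.4 in null C and D (adjusted p = 0.487 with all 8). *Pttg1*, the securin that delays the separation of sister chromatids (chromosome 11, 43420250 to 43426251, minus strand), had 67.5 and 79.6 against 209, 160.4, 148 and 163 (edgeR log2 fold change -1.22 ± 0.16 SE, adjusted p = 3.51e-05), and 93.1 and 169 in null C and D (adjusted p = 0.487 with all 8). Null D lay within the WT range for both. *Zdbf2* (chromosome 1, 63273265 to 63314576, plus strand) had 178 and 208 against 94.6, 104, 114 and 64.2 CPM (edgeR log2 fold change 1.02 ± 0.16 SE, adjusted p = 0.00054), and 138 and 88.6 in null C and D (adjusted p = 0.211 with all 8). *Msx3*, a homeobox gene of the dorsal neural tube behind the forebrain (chromosome 7, 140046157 to 140049089, minus strand), had 16.4 and 11.6 CPM in null and 1.15, 1.27, 0 and 0 in WT libraries (edgeR log2 fold change 4.29 ± 0.75 SE, adjusted p = 0.00281, 0.143 with DESeq2, 0.916 without null A and 0.0595 without null B), and 55.2 and 0 in null C and D. At 0 to 1.27 CPM, no WT library could pass the filter on low counts, so *Msx3* was tested through null A and B alone. Its fold change and p-values are therefore no independent support for the difference. The UMIs of *Msx3* lay in few cells. In null A, 28 UMIs came from 9 of 51 cells, 13 of them from 1 cell, and in null B all 13 UMIs came from 1 cell. The sum of 9 midbrain and hindbrain marker genes was 82.8 and 55.4 CPM in null A and B, 69.0 and 19.4 in null C and D and 17.3 to 46.0 in WT libraries, and its part in the *Msx3* result was not tested. *Crabp1*, a carrier of retinoic acid and the 1 list member that passed under the fold change (chromosome 9, 54764748 to 54773110, plus strand), had 123 and 104 against 63.5, 54.7, 63.6 and 60.0 CPM (edgeR log2 fold change 0.91 ± 0.16 SE, adjusted p = 0.00281), and 58.6 and 66.4 in null C and D (adjusted p = 0.143 with all 8 and 0.363 without null A).

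*Six3* (96.3 and 76.0 against 70.4, 80.2, 81.7 and 126 CPM, log2 fold change -0.02) and *Lhx2* (133 and 77.8 against 100.4, 98.0, 98.8 and 112, 0.08) overlapped between the groups in Late dorsal cells. All 12 dorsal telencephalon genes were tested, 0 passed, and their median was -0.06 on the log2 scale. *Emx2* had 176 and 136 CPM in null and 220.4, 191, 188 and 198 in WT libraries, and *Wnt8b*, a ligand of the cortical hem, 326 and 283 and 435, 348, 261 and 346. For *Emx2* both null libraries lay below every WT library, without passing the test, and for *Wnt8b* the groups overlapped. Beside 0.152% of all genes with an adjusted p under 0.05 (0.0887% higher and 0.0633% lower), 0 of 9 forebrain identity, 0 of 10 neural progenitor, 0 of 11 FGF, 0 of 11 Wnt, 0 of 8 BMP, 0 of 7 Notch, 0 of 4 Hedgehog and 0 of 7 STAT3 target and feedback genes passed. The retinoic acid list had 1 of 6 (*Crabp1*), with a median of 0.65. *Psmd8*, *Irak1bp1* and *Tpm3-rs7* passed the adjusted p under the fold change as well (0.53, 0.91 and -0.91, edgeR adjusted p = 0.0387, 0.0387 and 0.0017), with 0.788, 0.830 and 0.363 as the highest when 1 library was left out, and were chosen after their values were seen.

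A list of 12 genes drawn from earlier results of these data, which is no independent evidence of their direction, had 1 of 7 tested genes lower in Ventral (*Grb10*) and 3 of 5 in Late dorsal cells (*Akr1e1*, *Grb10* and *H19*), beside 0.0553% and 0.0633% of all genes with an adjusted p under 0.05 that were lower. RNA of blood cells moved with genotype at E9.5. The summed level of 6 erythroid markers, haemoglobins among them, was 6.75 to 54.8 CPM in null and 329 to 1659 in WT libraries for Ventral cells, and 6.26 to 74.7 and 217 to 3992 for Late dorsal cells. At E8.5 null A (1162 and 1242 CPM) was near WT (1182 to 1395 and 977 to 1240.5) and null B lower (237 and 148). The haemoglobin genes were left out of the tests, *Gata1* was at 0 in every null E9.5 library of Ventral cells, and the part of this RNA in the calls was not tested. In the comparisons of null and WT cells at E9.5, the genes of the erythroid and endoderm lists could not be tested in either label.

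The same genes were then read in neighbouring tissues and in all other cells of the E9.5 libraries, which share embryos and sort with the forebrain progenitors. *Cwc22* differed by 2.11 on the log2 scale in the Optic vesicle, 2.32 in Dorsal midbrain neurons, 2.01 at the Midbrain/Hindbrain boundary and 2.13 in all other cells, beside 2.17 in Ventral cells. The values for *Grb10* in the same order were -5.30, -4.38, -4.60 and -4.74, for *Pusl1* -2.23, -1.68, -1.70 and -1.77, and for *Zdbf2* 1.08, 1.00, 0.98 and 1.06. These 4 genes kept their direction in each tissue examined, and all but *Grb10* at the Midbrain/Hindbrain boundary (adjusted p = 0.178) had an edgeR adjusted p under 0.05 there. *Irak1bp1*, *Dph7*, *Zfp937*, *Csnk2a1*, *Psmd8*, *Tpm3*, *Tpm3-rs7*, *H19*, *Akr1e1* and *Pttg1* also kept their direction in each, though not always past that threshold, and so did *Igfbp5* (0.06 to 0.14) and *Crabp1* (0.13 to 0.26), which did not pass in any. In these tissues 0.182%, 0.11%, 0.0672% and 0.553% of all genes were called. *Phlda1* (0.14) and *Fgf10* (-0.10) were near 0 in all other cells, as were *Igfbp5* (0.10) and *Msx3* (0.04), each named above in 1 label. *Nkx2-4* differed by 0.71 in the Optic vesicle, -0.10 in Dorsal midbrain neurons and 0.48 in all other cells, and was not tested at the boundary. *Igfbp2* differed by 0.08, -0.02, 0.10 and 0.22 in the order above. Neither gene passed in any of these tissues. Whether an effect differed from that in all other cells of the same libraries was tested for 19 genes in Ventral cells. The effect on *Phlda1* differed by -1.37 and that on *Fgf10* by 0.93 on the log2 scale from the effect in the other cells (exact permutation test, p = 0.0286 each, the smallest for 4 against 4 libraries), yet neither passed after adjustment (0.217 each). In Late dorsal cells, where 2 against 4 libraries cannot go below 0.0667, no gene could pass. After adjustment over 19 genes a single gene could not pass in Ventral cells either, so whether an effect was particular to forebrain progenitors is not answered by these tests.

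The sequence that STAT dimers bind, TTCNNNGAA, which reads the same on both strands, was looked for in RefSeq promoters (build GRCm38.p6, 250 bases before to 50 after the start). It was present in 2726 of 32851 promoters (8.30%), in 1 of the 11 called genes of either label found in the table (of 13) and in 2 of 11 STAT3 target and feedback genes (of 14). Binding of STAT3 to these promoters was not measured. The windows of 30 bases around the called gene's match and those of the targets *Socs3* and *Cish* are shown 5′ to 3′ on the strand of each gene, with the first match in each promoter in capitals.
Zdbf2: agagcgagTTCCAGGAAatccagggctaca
Socs3: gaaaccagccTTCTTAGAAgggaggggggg
Cish: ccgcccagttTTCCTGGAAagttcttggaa
The *Zdbf2* window lies at chr1:63200108-63200137 on the plus strand, with its match centred 238 bases before the RefSeq start. That start lies far upstream of the gene span given above, so the match is not near the beginning of that span. Those of *Socs3* (chr11:117969501-117969530, minus strand, 150 bases before the start) and *Cish* (chr9:107296649-107296678, plus strand, 4 bases after the start) lie nearer to it. The *Cish* promoter holds 2 matches, and the other is the run of lower-case letters that ends its window. These matches are descriptions of the letters in the windows, and the share among the called genes rests on 1 promoter.

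Ventral forebrain progenitors differed between E8.5 and E9.5, with genotypes combined (4 libraries at E8.5 and 8 at E9.5, with at least 10 cells each). Of 9698 genes, 324 were called (3.34%), 232 higher (2.39%) and 92 lower (0.949%) at E9.5. Without E8.5 null B 278 were called, and without E8.5 WT B 152, of which 121 were among the 324. Among the genes that rose were *Fabp7* and *Vim*, genes of radial glia, and *Nes*, an intermediate filament gene, and among those that fell were the homeobox genes *Hesx1*, *Gsc* and *Nkx2-9*. With all stages pooled, *Hesx1* was highest in the Gut tube (26.3 CPM) and *Gsc* in the Anterior Primitive Streak (27.4). *Nkx2-9* was highest in the Hindbrain floor plate (168), and Ventral cells stood 3rd, 9th and 3rd for these genes. *Foxd4* and *Foxa2*, which also fell, were highest in the Node and *Spink1* in Visceral endoderm. Whether other kinds of cell under the E8.5 label shared in these falls was not tested. Stage and the preparation of the libraries cannot be told apart in this comparison.

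*Hesx1* (chromosome 14, 26994416 to 27002329, plus strand) had 92.2 and 265 CPM in E8.5 null A and B and 120.3 and 142 in WT A and B, against at most 1.84 in any E9.5 library. It was the gene with the largest fall among those named (edgeR log2 fold change -7.60 ± 0.37 SE, adjusted p = 5.83e-11, and -7.26 without E8.5 null B), from 71.8% of Ventral cells with a UMI to 2.10%. With 10 UMIs over the E9.5 libraries, *Hesx1* could pass the filter on low counts only through the E8.5 libraries. Its adjusted p-value is therefore no independent support for the fall. *Six3* fell as well, from 644 ± 42.4 to 402 ± 109 CPM (edgeR log2 fold change -0.85 ± 0.19 SE, adjusted p = 0.0211, 0.0681 to 0.115 without any 1 of the E8.5 libraries), with E8.5 values of 598 and 701 in null and 641 and 634 in WT libraries. Every E8.5 library lay above every E9.5 library. *Lhx2* had 197 and 51.5 and 220.5 and 129 CPM at E8.5 and 223 to 409.9 at E9.5. It did not pass the test (edgeR log2 fold change 0.98 ± 0.27 SE, adjusted p = 0.0646) but passed with DESeq2 (1.07, adjusted p = 0.00945), and every E9.5 library lay above every E8.5 library, while 8.95% of all genes did not overlap in either direction. *Nkx2-9*, a hedgehog-responsive homeobox gene, had 25.4 ± 15.6 CPM at E9.5 and 208 ± 19.96 at E8.5 (edgeR log2 fold change -3.09 ± 0.37 SE, adjusted p = 0.00123). *Gsc*, a homeobox gene of the prechordal plate, had 2.34 ± 2.10 CPM at E9.5 and 25.9 ± 22.4 at E8.5 (-3.26 on the log2 scale, edgeR adjusted p = 0.000273, 0.0806 without E8.5 WT B). *Foxa2*, a forkhead gene of the floor plate and endoderm, had 5.13 ± 3.79 CPM at E9.5 and 39.3 ± 25.8 at E8.5 (-3.06, edgeR adjusted p = 0.000163, 0.128 without E8.5 WT B). Of 110 Ventral cells at E8.5, 32 held both *Hesx1* and *Foxa2*, 47 *Hesx1* alone and 12 *Foxa2* alone.

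The other genes named among the largest falls were *Spink1*, *Ermn*, *Foxd4*, *Eras*, *Ifitm1*, *Ndufa4l2* and *Irs4*, with log2 fold changes from -5.65 to -3.10. *Spink1*, *Ermn*, *Foxd4* and *Eras* had 7, 4, 3 and 7 UMIs at E9.5. They too could pass the filter on low counts only through the E8.5 libraries, so their p-values are no independent support. *Ifitm1*, an interferon-induced membrane protein gene of the early epiblast, had 20.6 ± 6.32 CPM at E9.5 and 263 ± 95.8 at E8.5. *Ermn* was found in 10 of 11 cells of E8.5 null B. Without E8.5 WT B the adjusted p rose to 0.260 for *Ermn*, 0.174 for *Foxd4* and 0.0896 for *Ndufa4l2*. *Spink1*, a secreted protease inhibitor also on the endoderm list, fell with *Foxa2*. The sum of that list of 6 genes was 48.1 to 131 CPM at E8.5 and 5.80 to 18.9 at E9.5, and its part in these results was not tested.

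Among the genes that rose, *Fabp7*, a fatty acid-binding protein of radial glia, had 21.5 ± 7.88 CPM over the E9.5 libraries and 0 UMIs at E8.5. With a limit of 3 counts over the E8.5 libraries (1.28 CPM), it was at least 15.3-fold higher (edgeR adjusted p = 5.51e-06). On the same basis *Fuom* was at least 9.56-fold, *Tbx3os2* at least 9.42-fold, *Gstm7* at least 5.87-fold, *Mab21l1* at least 4.94-fold, *Nap1l2* at least 4.55-fold and *Folr1* at least 3.62-fold higher. With 0 UMIs at E8.5, these genes and *Fabp7* could pass the filter on low counts only through the E9.5 libraries. Their adjusted p-values are therefore no independent support for the rise. *Gstm7*, *Mab21l1*, *Nap1l2* and *Folr1* lost their call without E8.5 null A (edgeR adjusted p = 0.0819 to 0.254). *Nap1l2* also lost it without E8.5 WT B (0.0566), *Folr1* without E8.5 WT A (0.0612), without E8.5 WT B (0.127) and with DESeq2 (0.0596), and *Mab21l1* without E8.5 null B, WT A or WT B (0.0587 to 0.169) and without E9.5 null A, C or D or WT B or C (0.0567 to 0.0681). *Pmepa1* and *Tbx3os1* had 1 and 2 UMIs at E8.5. *Tbx3os1* and *Tbx3os2* are antisense to *Tbx3*, a hypothalamic gene. The study names the chemistry setting used in counting but does not spell out the strand, so the values of both are treated as uncertain. *Ntm*, a neuronal adhesion molecule, had 26.3 ± 5.86 CPM at E9.5 and 1.61 ± 3.22 at E8.5 (edgeR log2 fold change 4.96 ± 0.71 SE, adjusted p = 9.77e-06). *Vim*, the intermediate filament of neuroepithelium, had 546 ± 86.0 CPM at E9.5 and 67.9 ± 10.6 at E8.5 (edgeR log2 fold change 2.83 ± 0.17 SE, adjusted p = 1.05e-09), and *Nes* 196 ± 41.6 CPM at E9.5 and 61.5 ± 10.98 at E8.5 (1.57, edgeR adjusted p = 1.30e-05). *Emx2*, a dorsal telencephalic gene, had 33.8 ± 10.2 CPM at E9.5 and 2.12 ± 2.46 at E8.5 (4.38 on the log2 scale), from 3 UMIs at E8.5. *Emx2*, *Ntm*, *Pmepa1* and *Tbx3os1* were also too low at E8.5 to pass the filter on low counts there. Their p-values are therefore no independent support for a rise either.

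**Figure D4:**
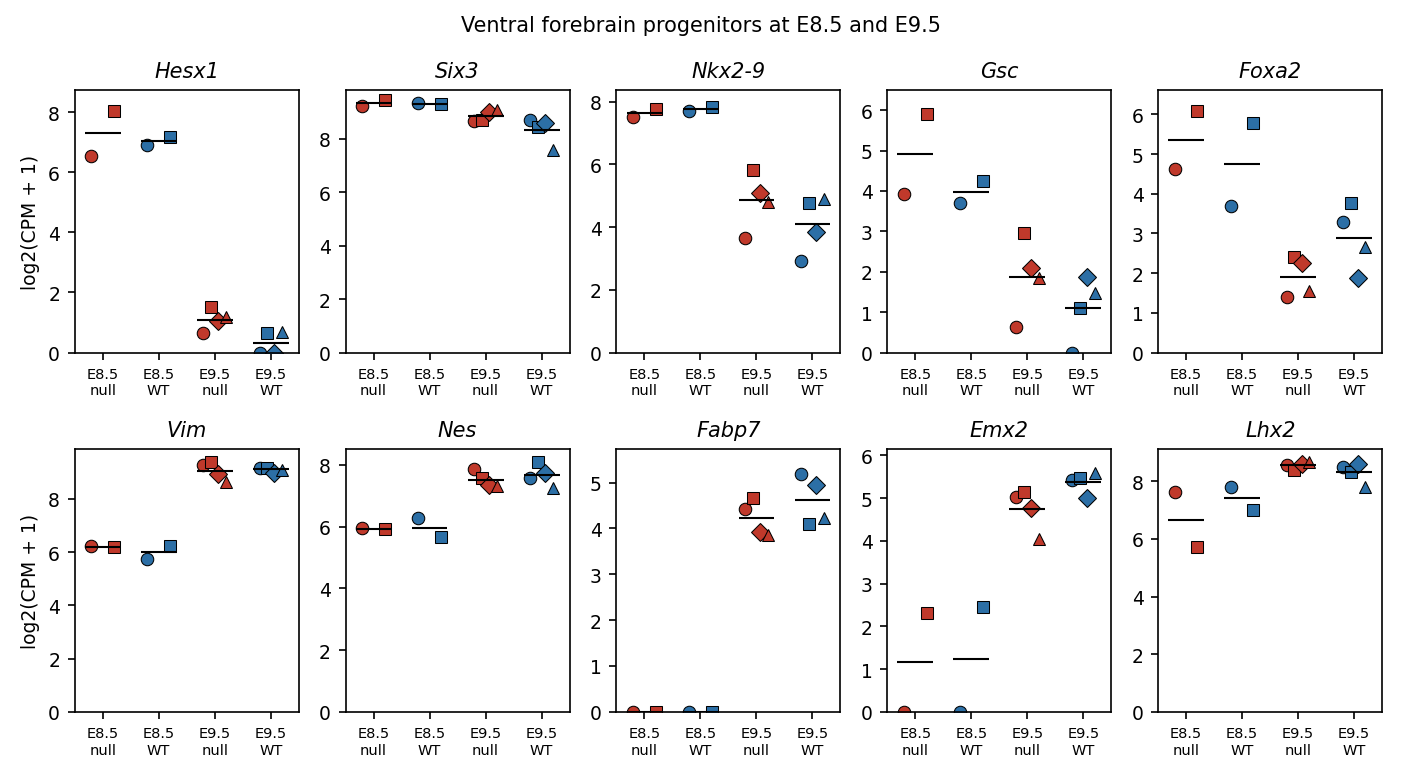
Level, as log2(CPM + 1), of 10 genes in Ventral forebrain progenitors of each E8.5 and E9.5 library with at least 10 cells (null in red, WT in blue, symbols for library letters, lines at the mean of each genotype within a stage). *Hesx1*, *Nkx2-9* and *Six3* lie lower at E9.5 and *Vim*, *Nes* and *Fabp7* higher in libraries of both genotypes.

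By list, 4 of 10 neural progenitor genes rose (*Nes*, *Vim*, *Fabp7* and *Msi1*) and 1 fell (*Sox3*), with a median of 1.08 on the log2 scale beside 0.04 over all genes, of which 7.79% had an adjusted p under 0.05 (4.05% higher and 3.73% lower). *Fabp7*, with 0 UMIs at E8.5, could enter this test only through the E9.5 libraries. The same held for *Emx2* and *Elavl4*, with 3 and 1 UMIs at E8.5. *Hesx1* and *Spink1*, with 10 and 7 UMIs at E9.5, could enter it only through the E8.5 libraries. Forebrain identity had 2 of 9 lower (*Six3* and *Hesx1*) and a median of -0.49. Dorsal telencephalon had *Emx2* higher and *Zic2* lower of 8, and diencephalon *Tcf7l2* lower of 4. Neuronal genes moved both ways, with *Elavl4* higher and *Stmn2*, a microtubule regulator of growing neurites, lower (44.6 ± 17.9 against 189 ± 24.9 CPM, edgeR adjusted p = 0.00688). Among FGF genes the ligand *Fgf18* (2.83) and the receptor *Fgfr3* (2.28) rose and the receptors *Fgfr1* (-0.71) and *Fgfr2* (-1.22) fell, 4 of 12 tested. The hedgehog receptor *Ptch1* fell by 0.69 on the log2 scale, the 1 gene of 8 in its list that passed, while *Shh* did not pass. Each of Wnt (*Nkd1* higher, *Sfrp1* lower of 11), Notch (*Notch1* higher, *Lfng* lower of 9) and retinoic acid (*Crabp2* higher, *Rarb* lower of 8) had 1 gene in each direction, and BMP had *Id3* lower of 8. None of 7 eye field, 8 ventral forebrain and hypothalamus, 14 S phase and 14 G2/M genes passed. *Ccnd1* rose (599 ± 68.1 against 297 ± 70.4 CPM, 0.86), the 1 of 10 STAT3 target and feedback genes that passed. The dissociation stress list had *Jun* and *Dusp1* higher of 7 tested, with a median of -0.65, so its calls and its median differ in sign. Of the 29 list members that passed, 12 did so whichever library was left out (*Hesx1*, *Nes*, *Vim*, *Fabp7*, *Emx2*, *Ptch1*, *Fgf18*, *Fgfr2*, *Nkd1*, *Id3*, *Ccnd1* and *Spink1*). The other 17 lost the call without some library, 15 of them without E8.5 null A, 13 without E8.5 WT B, 9 without E8.5 WT A, 7 without E8.5 null B and 1 to 4 without an E9.5 library other than WT A or B. Of the 12, *Hesx1*, *Spink1*, *Fabp7* and *Emx2* entered the test only through the stage where they were high. Their calls without 1 library are thus no independent support. With DESeq2, *Fgfr3*, *Zic2*, *Lfng*, *Jun* and *Dusp1* did not pass (adjusted p = 0.129, 0.0606, 0.0866, 0.0793 and 0.157).

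Null and WT Ventral cells at E8.5 were compared in 2 libraries each, with 61, 11, 10 and 28 cells, a lower minimum than planned (10 cells in place of more than 15) chosen after seeing the data. Of 4563 genes, edgeR called 0 and left 142 under 0.05 before adjustment, and DESeq2 called 0 and left 14. With E8.5 null B left out, edgeR called 10 genes, in a fit where null A was assumed to vary like the WT libraries. Beside 32.5% of all genes whose groups did not overlap, *Pusl1* had 9.29 and 3.96 CPM in null and 20.05 and 36.1 in WT libraries without overlap, while *Cwc22* (96.5 and 123 against 100.2 and 45.1) overlapped. *Grb10* had 13.6 and 325 CPM in null A and B and 349 and 325 in WT libraries. All 11 cells of null B held a *Grb10* UMI, the 7 with a tdTomato UMI among them, whereas in null A it was found in 2 of 53 cells with and 3 of 8 without one. *Hesx1* (0.18 on the log2 scale, edgeR adjusted p = 1), *Six3* (0.05) and *Lhx2* (-0.11) overlapped between genotypes. Without null B these 3 values were -0.48, -0.04 and 0.29. The difference of the genotype effect between E9.5 and E8.5 was tested as an interaction, which called 0 genes by edgeR (379 with an unadjusted p under 0.05) and 0 by DESeq2 (172), and 0 by edgeR without E8.5 null B, while 2 were called with no filter on low counts.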

How the data were processed

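Chimeric embryos were dissociated and sorted by tdTomato, and RNA of single cells was counted at the 3′ end in 16 libraries. The authors mapped reads to mm10 with Cell Ranger, counted them on an annotation with the tdTomato sequence added, and deposited raw UMI counts per gene and cell, with no normalization. The authors removed cells outside limits on reads, genes and the mitochondrial percentage of UMIs, which they deposited as a percent per cell. They deposited doublet calls, and a cell type and stage taken from the 25 nearest cells of an atlas, with the share of those cells that carried the label as a fraction. Per the study's methods, imprinted genes were left out of that mapping and also of its expression tests. Such genes were kept in the tests here.

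Of 41832 cells in the matrix, 3395 doublet calls and 596 WT-sorted singlets with a tdTomato UMI (13 of them forebrain progenitors) were left out here. Doublets were not called anew. The names of the libraries match no sample title, so the group of a library came from the stage and sort gate that the deposited cell table gives it. For the same reason the embryo pool used as a block in the study's design could not be fitted, and its neighbourhood test of abundance was replaced by a test per cell type. 0 columns with values of samples remained unmatched.

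UMIs were summed per label and library for libraries with more than 15 cells of the label (at least 10 in comparisons with E8.5) and tested by quasi-likelihood F-test (edgeR 4.0.16, R 4.3.3, filterByExpr, TMM factors, robust fit), with DESeq2 1.42.0 as an alternative. Of 29453 genes, 21275 entered before the filter on low counts, after predicted, mitochondrial, ribosomal protein, haemoglobin, sex-linked sorting and reporter genes were set aside. A gene was called at a Benjamini-Hochberg adjusted p under 0.05 over all genes tested and an absolute log2 fold change over 1. Shares and mean atlas stages were compared by exact two-sided permutation tests over libraries. Scripts were tested on simulated data. Python 3.11.15, NumPy 2.4.6, SciPy 1.17.1 and pandas 2.3.3 were used. Positions are those of GRCm38 and promoters those of RefSeq.

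The members and gene lists were chosen with earlier results of these data known. Genes are named where called (for stages, the 10 largest changes in each direction without overlap of libraries), where a list member passed, and for *Stat3*, *Hesx1*, *Six3* and *Lhx2*. Depth was 249438 to 1398680 UMIs per Ventral library at E8.5, which limits the genes that could be tested there to 4563. The level of 1 marker gene of the lists is not reported here.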

Additional observations from a re-analysis of the deposited data

Results flagged for a closer look

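*Phlda1* in Ventral forebrain progenitors of E9.5 WT A reached 44.1 CPM, far above the 28.6, 28.3 and 29.5 CPM of the other WT libraries. It was the 1 value of 48 groups of 4 libraries that lay outside its group by Dixon's test, which chance would give in about 1 in 20 groups. WT A held 16 Ventral cells, the fewest of the E9.5 libraries. Without it *Phlda1* was still lower in null (edgeR log2 fold change -1.08, adjusted p = 0.0252).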

How the results depend on the processing

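Of the summary results, 159 values under alternatives kept their direction and side of the threshold, 11 moved and 13 reversed. The number of genes called at E9.5 was 7 for Ventral and 8 for Late dorsal cells, and 33 and 28 with no filter on low counts, which tests more genes. Leaving out 1 library gave 4 to 13 calls in Ventral cells (4 without null A, of which 3 were among the 7, and 13 without WT A, all 7 included) and 6 to 12 in Late dorsal cells. At E8.5 the count of 0 became 8 with no filter and 6 to 15 without 1 library (15 without null A, 10 without null B), fits that rest on 1 library in a group. The stage comparison, with 324 calls, gave 152 (without E8.5 WT B, 121 shared) to 355 and the interaction, with 0, gave 2 with no filter. The cause of these changes was not tested.

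The log2 ratio of Late dorsal cell numbers at E9.5 (0.01) became -0.057 with no minimum of cells, -0.061 with tdTomato-positive null cells alone, -0.020 with blood labels left out, and -0.26 to 0.21 without 1 library. The difference in the Late dorsal share (-0.0155 points) ran from -0.142 to 0.125 without 1 library, and that in mean atlas stage (0.00283 days) was -0.00108 with tdTomato-positive null cells alone and -0.0131 to 0.0220 without 1 library. Among named genes not past the threshold, *Six3* in Late dorsal cells (-0.02) ran from -0.20 to 0.19 without 1 library and was 0.013 without shared barcodes. *Lhx2* (0.08) ran from -0.37 to 0.37 and was -0.00942 without shared barcodes and -0.070 with all 8 libraries. Without 1 library at E8.5, *Hesx1* ran from -0.48 to 1.03, *Six3* from -0.043 to 0.17 and *Lhx2* from -1.65 to 0.29, and the interaction of *Lhx2* (0.29) from -0.074 to 1.89. Of the other values of named genes, 906 kept their call, 115 lost it and 7 gained it. Fits with more than 50 cells per library (both labels) and over all stages (Late dorsal) were not run, for want of libraries. No paired analysis was possible because the library names match no sample title, so the replicate number of a library is not known.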
